A study of Rattus norvegicus with 9 samples.

Results

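The matrix metalloproteinases (Mmp genes), the secreted ADAMTS proteases (Adamts genes) and their tissue inhibitors (Timp genes) were described in the spinal cord of rats at 35 days after contusion, with and without high-frequency spinal cord stimulation (HF-SCS). The members were all protein-coding rows of the count table whose symbol begins with Mmp, Adamts or Timp and a digit, with 1 row kept per symbol. This gave 45 genes of 30507 rows, namely 23 Mmp genes, 19 Adamts genes and 3 Timp genes. The Timp genes were Timp1, Timp3 and Timp4. No protein-coding row carried the symbol Timp2, so that inhibitor is not described here. All rats were wild-type female Sprague-Dawley rats, 8 weeks old at the start of the study. The 3 Sham rats had a laminectomy and no contusion. The 3 SCI rats had a contusion of 150 kdyn at T10 and carried an electrode plug without an implanted electrode. The 3 SCI + SCS rats had the same contusion and an epidural electrode, through which pulses of 10 kHz, 0.12 mA and 30 µs were given for 2 h per day from 1 day post-injury (dpi). The electrode itself and the current therefore cannot be told apart in SCI + SCS against SCI, because a group with an electrode and no current was not analysed here. RNA came from whole tissue of the T9-T11 segments, so each library mixes the lesion with its surroundings.

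Both protease families hold a zinc ion in their active site and cut proteins of the extracellular matrix. Mmp enzymes are made as inactive precursors and are switched on when a propeptide is removed, often by plasmin or by another metalloproteinase. Between them they cut collagens, elastin, laminins and fibronectin, and in injured cord they are known for opening the blood-spinal cord barrier, for leukocyte entry and for scar remodelling. Several Adamts enzymes cut the chondroitin sulfate proteoglycans that limit axon growth in scar tissue, and others trim procollagen. Timp proteins bind the active site and block it, so a transcript level is not a measure of enzyme activity.

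Of the 23 Mmp genes, 10 lie side by side on chromosome 8, and the 3 members with the largest rise after injury are among them. In the build mRatBN7.2, named in the submitters' processing notes, the order along the chromosome was Mmp13, Mmp12, Mmp1b, Mmp3, Mmp1, Mmp10, Mmp8, Mmp27, Mmp20 and Mmp7. The cluster spanned 358 kb, and 0 other rows of the table lay between these genes. Mmp12 lay at chr8:4581785-4591686, Mmp8 at chr8:4724029-4733520 and Mmp7 at chr8:4848186-4855902, all on the plus strand. The 110 bases before the annotated start are shown for these 3 genes and for Mmp3 and Mmp10, neighbours whose levels stayed low, so that genes that rose and genes that stayed low can be compared. They are RefSeq sequences of the build GRCr8, plus strand, 5′ to 3′. Capitals mark TGANTCA, which takes in the AP-1 motifs TGAGTCA and TGACTCA that Fos and Jun proteins bind, and the TATA motif TATAAA. Each was searched on both strands (TTTATA is TATAAA on the other strand).
Mmp12, GRCr8 chr8:12866542-12866651: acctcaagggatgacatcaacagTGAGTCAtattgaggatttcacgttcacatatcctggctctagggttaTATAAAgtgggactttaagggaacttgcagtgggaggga
Mmp7, GRCr8 chr8:13132933-13133042: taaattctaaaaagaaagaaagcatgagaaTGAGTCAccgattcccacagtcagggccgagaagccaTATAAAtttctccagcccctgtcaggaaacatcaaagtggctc
Mmp8, GRCr8 chr8:13008780-13008889: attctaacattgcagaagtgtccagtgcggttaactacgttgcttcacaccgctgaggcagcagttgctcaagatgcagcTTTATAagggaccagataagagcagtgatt
Mmp3, GRCr8 chr8:12925171-12925280: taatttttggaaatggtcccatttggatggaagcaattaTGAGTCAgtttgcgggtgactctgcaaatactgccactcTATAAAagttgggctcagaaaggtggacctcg
Mmp10, GRCr8 chr8:12974597-12974706: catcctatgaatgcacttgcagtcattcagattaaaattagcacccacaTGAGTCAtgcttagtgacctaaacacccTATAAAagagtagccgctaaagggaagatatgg

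A promoter entry was matched by symbol for 34 of the 45 members. In the 250 bases before the start, TGANTCA was present in 7 of the 10 clustered genes and in 0 of the other 24 members with an entry, against 6.34% of all 33469 promoters. The 7 were Mmp13, Mmp12, Mmp3, Mmp1, Mmp10, Mmp20 and Mmp7, with the motif beginning 87 bases before the start in Mmp12 and 80 bases before it in Mmp7. TATAAA was present in 8 of the 10 clustered genes and in 4 of the other 24 members, against 12.9% of all promoters. Mmp12 and Mmp7, which rose after injury, shared both motifs with Mmp3 and Mmp10, which stayed low in all groups, while Mmp8 rose and had no TGANTCA in this window. A member was counted if any of its entries held the motif, while the shares of all promoters count each entry. The clustered genes are neighbours of the same family and not independent draws from all promoters. A match of letters is a description of the sequence and not a binding site.

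The deposited counts summed to between 62844376 and 88358570 per library. Levels are given as CPM, counts scaled to a common library size, after TMM, edgeR's correction for library composition. A level of 3 counts, taken as the floor of detection, was 0.0341 to 0.0470 CPM. More rows stood at exactly 4 counts than at 5 in 9 of 9 libraries, and than at 3 in 8 of them (not SCI 1), so 1 sequenced fragment may give more than 1 count and the floors are nominal. The libraries held the markers of spinal cord, with a summed neuron list (8 of 8 genes found) of 1657 to 2801 CPM in Sham. They also held other tissue, and the summed skeletal muscle list (10 of 15 genes found) was 3915 CPM in SCI 1 and 1197 CPM in SCI 3, against 16.6 to 73.1 CPM elsewhere. Sham 1 stood apart from the other Sham libraries in its fibroblast list (7 of 7 genes found), with 358 CPM against 1132 and 1810 CPM. Less RNA of a member per cell and fewer cells that make it cannot be told apart in such whole-tissue libraries.

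Levels can be compared between genes only per length, for which the deposited FPKM values were used. In Sham the members with the highest median were Timp3 at 37.7 FPKM, Mmp15 at 26.9 FPKM, Adamts4 at 20.6 FPKM and Timp1 at 17.1 FPKM, and their ranges overlapped from each to the next. In SCI, Timp1 came first with a median of 180.1 FPKM (171.6 to 201 FPKM), above Timp3 at 54.2 FPKM, and these ranges did not overlap. The protease with the highest median in SCI was Mmp2 at 39.4 FPKM, followed by Mmp15 at 29.7 FPKM with an overlapping range. Mmp12 moved from 0 FPKM in Sham to a median of 14.6 FPKM in SCI, the eighth place among the 45 members. At the other end, Mmp1 and Mmp27 had 0 counts in all 9 libraries, and Mmp10, Mmp1b, Mmp20, Mmp21 and Adamts18 were at or below 0.375 CPM in every library. These 7 genes did not pass edgeR's filter on low counts in any comparison, which left 38 members tested in each.

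**Figure D1:**
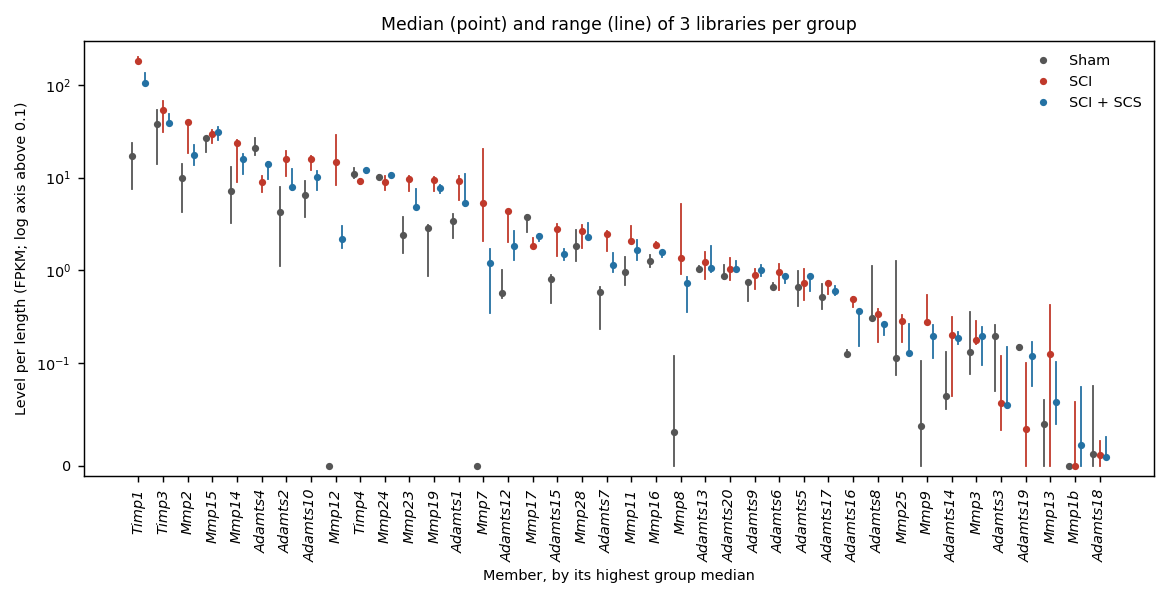
Level per length of 40 members (FPKM, log axis above 0.1) in Sham, SCI and SCI + SCS, ordered by the highest group median. Points are medians of 3 libraries and lines run from the lowest to the highest library. Timp1 in SCI lies highest, and Mmp12 and Mmp7 lie at 0 in Sham.

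The first comparison, SCI against Sham, addresses the effect of the contusion at 35 dpi. A differentially expressed gene (DEG) was taken as one with a log2 fold change (log2FC) beyond 1 in either direction and a Benjamini-Hochberg adjusted p below 0.05 over all genes in edgeR's quasi-likelihood test. Of the 38 members tested, 14 were DEGs higher in SCI, against 13.4% of all genes, and 1 was a DEG lower in SCI, against 13.6% of all genes. The 14 were Adamts1, Adamts7, Adamts10, Adamts12, Adamts15, Adamts16, Mmp2, Mmp7, Mmp8, Mmp11, Mmp12, Mmp19, Mmp23 and Timp1, and the 1 that fell was Adamts4. With no fold threshold, 17 members passed in either direction, against 49.4% of all genes, the added 2 being Mmp16 (higher, log2FC 0.56) and Mmp17 (lower, log2FC -0.83). The median log2FC of the members was 0.85, against 0.02 over all genes tested. Leaving out 1 library at a time gave between 12 and 19 member DEGs, the lowest without Sham 2 or SCI 3 and the highest without Sham 3. Without the muscle-rich library SCI 1 there were 15, and without SCI 3, the other one, there were 12.

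Among the collagenases, which make the first cut in fibrillar collagen, Mmp8 rose and the others did not pass the test or were not tested. Mmp8, known as neutrophil collagenase, was at 0, 0.0908 and 0.311 CPM in the Sham rats and at 2.60, 12.5 and 3.31 CPM in the SCI rats. Every SCI library was above every Sham library. The log2FC was 5.44 (SE 1.14, adjusted p = 0.00916 in edgeR's quasi-likelihood test), a 43.4-fold difference that became 20.8-fold without SCI 2 and 116-fold without Sham 3. Mmp13 ran from 0 to 0.219 CPM in Sham and from 0 to 1.30 CPM in SCI and did not pass the test (adjusted p = 0.276, same test). Mmp1b was detected in 1 SCI library, at 0.116 CPM.

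The elastase Mmp12, a product of macrophages, was absent from the Sham counts and abundant in SCI. It had 0 counts in all 3 Sham libraries and stood at 20.6, 60.9 and 31.1 CPM in SCI (37.5 ± 20.9 CPM, SD, n = 3). Against the floor of 3 counts per library this was at least 974-fold higher in SCI, and at least 244-fold if each fragment gave 4 counts. Its adjusted p was 0.00158 in edgeR's quasi-likelihood test. Matrilysin, Mmp7, a small enzyme without the hemopexin domain of its relatives, likewise had 0 counts in all Sham libraries. In SCI it stood at 7.53, 24.3 and 2.52 CPM, with a wide spread between rats. The mean was at least 297-fold above the floor, or at least 130-fold without SCI 2, the library with the highest Mmp7, Mmp8 and Mmp12 levels (adjusted p = 0.00636, same test). If each fragment gave 4 counts, the mean of all 3 SCI libraries was at least 74.4-fold above the floor.

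Of the stromelysins, Mmp11 rose and the other two stayed low. Mmp11, stromelysin-3, which is made by stromal cells, was at 1.99, 2.63 and 3.92 CPM in Sham and at 6.50, 5.18 and 8.06 CPM in SCI. Its log2FC was 1.19 (SE 0.30, adjusted p = 0.0172 in edgeR's quasi-likelihood test), and the adjusted p became 0.0646 without Sham 2 and 0.063 without SCI 3. Mmp3, stromelysin-1, was between 0.204 and 0.830 CPM in Sham and between 0.355 and 0.622 CPM in SCI, with a log2FC of 0.09 (SE 0.60). Mmp10, stromelysin-2, was at 0 in all Sham libraries and at 0.0568 CPM in 1 SCI library. Along the cluster, the plot of levels in chromosomal order therefore shows 3 genes that rose between neighbours that reached at most 1.30 CPM.

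**Figure D2:**
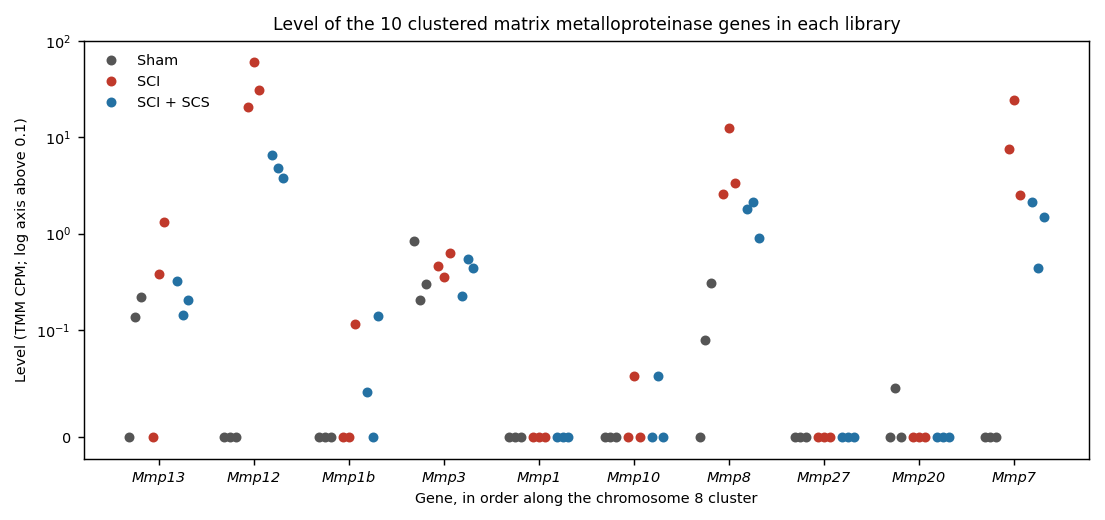
Level (TMM CPM, log axis above 0.1) of the 10 Mmp genes of the chromosome 8 cluster, in order along the chromosome, with 1 point per library. Mmp12, Mmp8 and Mmp7 stand above the other genes of the cluster in every SCI library, and the SCI + SCS points of these 3 genes lie between Sham and SCI.

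The gelatinases, which digest denatured collagen and basement membrane collagen, both stood higher in every SCI library than in every Sham library, and 1 of them passed the test. Mmp2 stood at 16.4, 36.9 and 52.9 CPM in Sham and at 78.2, 144 and 143 CPM in SCI. No SCI library overlapped with Sham, and the log2FC was 1.77 (SE 0.44, adjusted p = 0.0170 in edgeR's quasi-likelihood test). The call was lost without Sham 2, SCI 2 or SCI 3 (adjusted p of 0.0566, 0.0538 and 0.0555), at folds of 3.46, 3.07 and 3.10 against 3.40. Mmp9, which neutrophils and macrophages release, was at 0, 0.148 and 0.403 CPM in Sham and at 1.14, 1.01 and 1.98 CPM in SCI. Its groups did not overlap, but with a log2FC of 2.85 (SE 0.99) the adjusted p was 0.0511 in edgeR's quasi-likelihood test. It became 0.0288 without Sham 1 and 0.028 without Sham 3, and 0.00952 in DESeq2. The 7.21-fold difference was 16.8-fold without Sham 3.

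Of the 6 membrane-type enzymes, 0 were DEGs in edgeR's quasi-likelihood test, while DESeq2 called Mmp14 (log2FC 1.28, adjusted p = 0.0183). Mmp14, the main cell-surface activator of the Mmp2 precursor, was at 9.90, 20.7 and 37.4 CPM in Sham and at 29.5, 66.3 and 71.5 CPM in SCI. The groups overlapped through Sham 3 and SCI 1, with a log2FC of 1.29 (SE 0.52) and an adjusted p of 0.0807 in edgeR's quasi-likelihood test, which became 0.0286 without Sham 3 at a log2FC of 1.84. Mmp15 and Mmp24, other membrane types, had log2FC values of 0.22 and -0.21 and overlapping libraries. Mmp16, a further transmembrane type, was at 4.82 to 6.24 CPM in Sham and at 7.80 to 8.53 CPM in SCI. Its adjusted p of 0.0256 in edgeR's test rose to between 0.0559 and 0.0749 when Sham 1, Sham 3 or any SCI library was left out. Mmp17, which is held in the membrane by a lipid anchor, fell from 17.6, 16.0 and 11.3 CPM in Sham to 8.61, 9.31 and 7.64 CPM in SCI (adjusted p = 0.0148, 0.0528 without Sham 2 and 0.0512 without SCI 3). Mmp25, the other lipid-anchored type, stood at 5.41 CPM in Sham 2 and between 0.403 and 1.39 CPM in the other Sham and SCI libraries.

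Mmp19 and Mmp23 rose in SCI as well. Mmp19, which cuts basement membrane proteins, was at 2.77, 8.65 and 9.58 CPM in Sham and at 24.9, 30.2 and 28.6 CPM in SCI, with a log2FC of 1.98 (SE 0.43, adjusted p = 0.0103 in edgeR's quasi-likelihood test). Mmp23, which is anchored by its propeptide and lacks the usual hemopexin domain, was at 2.72, 4.10 and 6.67 CPM in Sham and at 13.9, 16.2 and 17.2 CPM in SCI, with a log2FC of 1.79 (SE 0.32, adjusted p = 0.00527, same test). In both genes the lowest SCI library was above the highest Sham library. Mmp28, a secreted enzyme also called epilysin, had overlapping libraries and a log2FC of 0.34 (SE 0.29).

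The proteoglycanases, which cut aggrecan, versican or brevican, moved in both directions. Adamts4, also called aggrecanase-1, was the only member DEG that fell. It was at 83.8, 93.6 and 125 CPM in Sham and at 46.1, 45.6 and 30.9 CPM in SCI, a clear gap between groups. Its log2FC was -1.32 (SE 0.21, adjusted p = 0.00394 in edgeR's quasi-likelihood test), a 2.49-fold lower level. Adamts5, aggrecanase-2, was at 1.99, 3.06 and 4.68 CPM in Sham and at 2.54, 4.77 and 3.37 CPM in SCI, with overlapping libraries and a log2FC of 0.12 (SE 0.38). Adamts1 rose from 13.8, 20.2 and 24.5 CPM to 38.7, 60.4 and 53.2 CPM, with a log2FC of 1.36 (SE 0.25, adjusted p = 0.00559, same test). Adamts15 rose from 3.41, 5.99 and 6.67 CPM to 11.8, 19.8 and 22.7 CPM, with a log2FC of 1.74 (SE 0.33, adjusted p = 0.00662, same test). Neither gene's libraries overlapped between the groups, whereas those of Adamts8, Adamts9 and Adamts20 did, with log2FC values of -0.97, 0.35 and 0.16.

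The procollagen N-proteinases, which remove the amino-terminal propeptide before collagen fibrils form, did not reach the threshold. Adamts2, which acts on the fibrillar procollagens, was at 5.56, 20.4 and 38.5 CPM in Sham and at 56.4, 74.3 and 89.5 CPM in SCI, with no overlap. Its log2FC was 1.76 (SE 0.62, adjusted p = 0.0521 in edgeR's quasi-likelihood test), and the adjusted p was 0.0241 without Sham 1, 0.0178 without Sham 3 and 0.00364 in DESeq2. The 3.39-fold difference was 5.54-fold without Sham 3. Adamts14 and Adamts3 were at 1.45 CPM or less in every library and did not pass (log2FC 1.13 and -1.33).

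Adamts7 and Adamts12, a pair of related enzymes that cut cartilage oligomeric matrix protein, both rose. Adamts12 went from 5.45, 5.95 and 10.7 CPM to 23.9, 44.6 and 46.0 CPM, with a log2FC of 2.36 (SE 0.36, adjusted p = 0.00318 in edgeR's quasi-likelihood test). Adamts7 went from 1.64, 3.88 and 4.51 CPM to 12.02, 15.7 and 17.0 CPM, with a log2FC of 2.14 (SE 0.38, adjusted p = 0.00499, same test). The groups of both were apart by a wide gap. Adamts10, which binds fibrillin microfibrils, rose from 18.8, 31.1 and 45.8 CPM to 66.1, 80.9 and 75.2 CPM, with a log2FC of 1.20 (SE 0.30, adjusted p = 0.0167, same test). Without Sham 2, SCI 2 or SCI 3 its adjusted p was 0.0599, 0.0541 or 0.0512. Adamts16 lay between 0.749 and 0.863 CPM in Sham and between 2.76 and 3.01 CPM in SCI, with a log2FC of 1.83 (SE 0.22, adjusted p = 0.00183). Adamts13, which cuts von Willebrand factor, had overlapping libraries (log2FC 0.20), as did Adamts6 (0.37) and Adamts17 (0.33). Adamts19 had the lowest log2FC of the members tested, -1.79 (SE 1.06), and did not pass (adjusted p = 0.199, same test). It was low, at 0.749 to 0.863 CPM in Sham and at 0 to 0.525 CPM in SCI, without overlap.

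The 3 inhibitors with a row, which do not include Timp2, did not move together. Timp1, a soluble inhibitor that is induced by inflammatory signals, was at 8.28, 18.2 and 26.1 CPM in Sham and at 218, 178 and 209 CPM in SCI (202 ± 21.2 CPM, SD, n = 3). The lowest SCI library was far above the highest Sham library, with a log2FC of 3.51 (SE 0.41, adjusted p = 0.00177 in edgeR's quasi-likelihood test), an 11.4-fold higher level. Timp3, which stays bound to the matrix and also blocks Adamts enzymes, was at 30.8, 80.2 and 117 CPM in Sham and at 75.1, 112 and 139 CPM in SCI, with overlapping groups and a log2FC of 0.50 (SE 0.47, adjusted p = 0.396). Timp4 was at 52.2, 38.4 and 44.1 CPM in Sham and at 41.4, 32.5 and 37.5 CPM in SCI, also overlapping, with a log2FC of -0.29 (SE 0.15, adjusted p = 0.145).
Timp1, Timp3 and Timp4 each lie inside a synapsin gene on the opposite strand (Syn1, Syn3 and Syn2), and Adamts4 lies inside Ppox. Mmp11, Adamts6, Adamts9 and Mmp28 overlap in part with opposite-strand genes, which for Mmp11 is Chchd10. The strand setting of the counting is not given in the sources used here, so reads of these pairs may not have been kept apart. In SCI against Sham the neuronal genes Syn1, Syn2 and Syn3 had log2FC values of -1.89, -2.40 and -1.52, opposite in sign to Timp1 and Timp3, while Timp4 had the same sign as Syn2. Ppox had 0.57, opposite in sign to Adamts4. Chchd10 stood at 161 to 236 CPM in Sham and at 97.0 to 153 CPM in SCI, far above the levels of Mmp11.

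**Figure D3:**
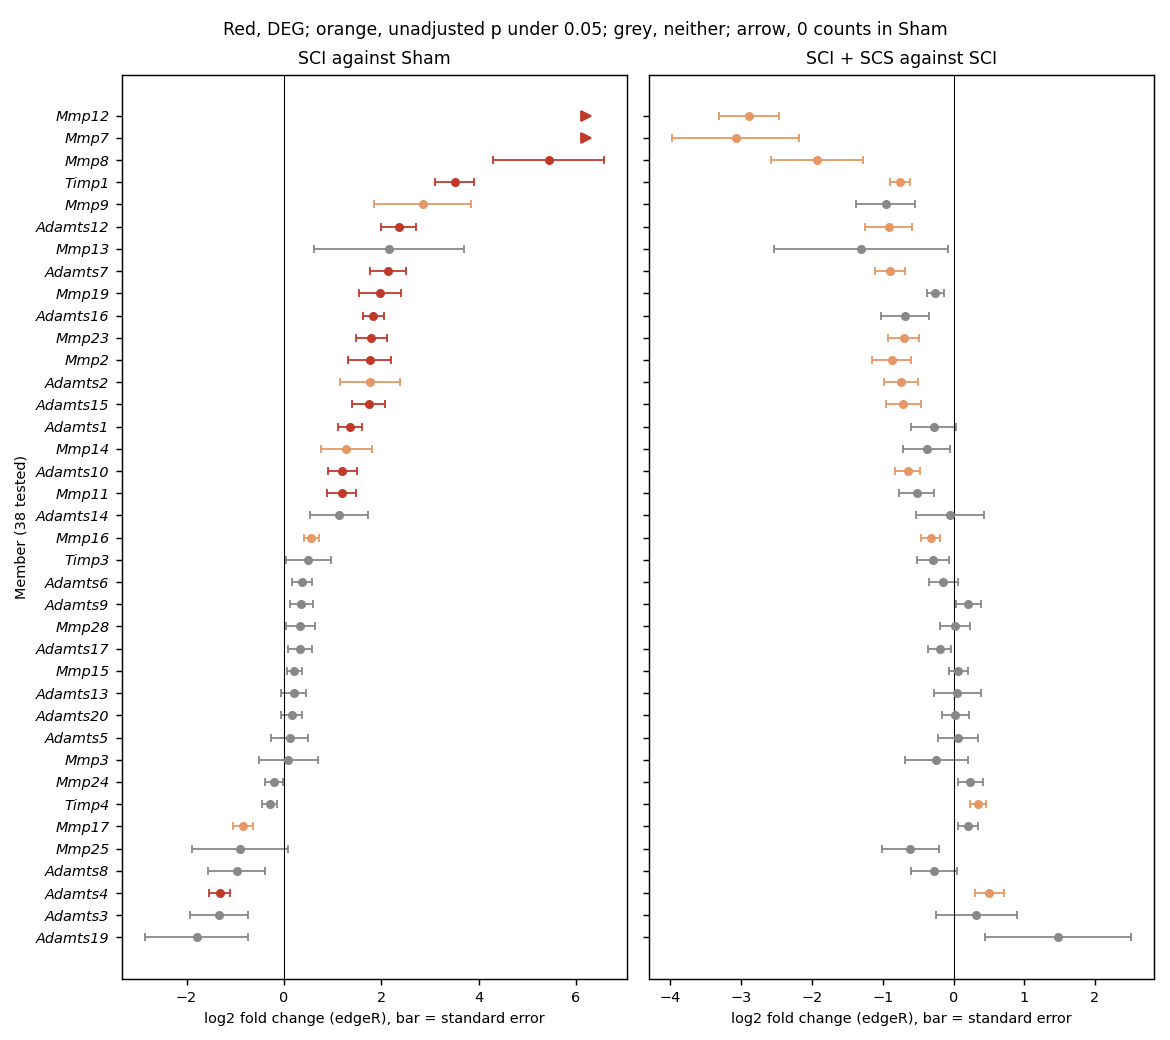
The log2FC of the 38 members tested in SCI against Sham (left) and in SCI + SCS against SCI (right), in 1 order, with standard errors as bars. Red marks DEGs, orange an unadjusted p under 0.05, grey neither; the arrows stand for Mmp12 and Mmp7, whose Sham counts were 0. The 14 members that rose on the left lie to the left of 0 on the right.

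The second comparison, SCI + SCS against SCI, addresses the effect of the stimulation on injured cord. In edgeR's quasi-likelihood test 0 of the 38 members were DEGs, against 0.00566% of all genes (1 of 17663). At an unadjusted p under 0.05, 12 members were lower in SCI + SCS, against 10.9% of all genes, and 2 were higher, against 13.3% of all genes. The 12 were Adamts2, Adamts7, Adamts10, Adamts12, Adamts15, Mmp2, Mmp7, Mmp8, Mmp12, Mmp16, Mmp23 and Timp1, and the 2 were Adamts4 and Timp4. The libraries of 10 members were all lower in SCI + SCS than in SCI, against 13.9% of all genes. DESeq2, which was the study's own tool, gave 3 member DEGs, all lower in SCI + SCS (Mmp12, Mmp7 and Mmp8), against 2.14% of all genes. The median log2FC of the members was -0.28, against -0.01 over all genes tested. Both comparisons share the SCI libraries, so a low or high SCI library enters them with opposite signs.

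Mmp12 had the smallest adjusted p of the members. It was at 6.51, 4.74 and 3.77 CPM in SCI + SCS (5.01 ± 1.39 CPM, SD, n = 3) against 20.6, 60.9 and 31.1 CPM in SCI, and the groups did not overlap. The level was 7.44-fold lower, with a log2FC of -2.89 (SE 0.42, unadjusted p = 0.000244 and adjusted p = 0.0719 in edgeR's quasi-likelihood test). Without SCI 2, the highest library, the log2FC was -2.36 and the adjusted p was 0.0437, the only leave-one-out setting with a member DEG. DESeq2 gave an adjusted p of 1.5e-11 for the same 6 libraries. Mmp7 was at 2.12, 0.440 and 1.49 CPM in SCI + SCS, with every library below the lowest SCI library at 2.52 CPM (log2FC -3.08, SE 0.90, adjusted p = 0.115 in edgeR's test). Mmp8 was at 1.80, 2.11 and 0.892 CPM, also below the lowest SCI library at 2.60 CPM (log2FC -1.93, SE 0.66, adjusted p = 0.142, same test). For Mmp7 and Mmp8 the gap to the nearest SCI library was small beside the spread within SCI. Without SCI 2 the log2FC of Mmp7 was -1.90 and that of Mmp8 was -0.88.

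Timp1 had the next smallest adjusted p. It was at 141, 111 and 105 CPM in SCI + SCS, all below the SCI range of 178 to 218 CPM, with a log2FC of -0.75 (SE 0.14, unadjusted p = 0.0011 and adjusted p = 0.0774 in edgeR's quasi-likelihood test). Without SCI + SCS 1 the adjusted p was 0.0499 at a log2FC of -0.89, and DESeq2 gave 8.71e-05. Timp4 was at 43.8, 48.0 and 48.9 CPM, above all SCI libraries (log2FC 0.35, SE 0.11, adjusted p = 0.125 in edgeR's test). Syn2, the synapsin gene around it, moved the same way, from 8.45 to 13.3 CPM in SCI to 21.9 to 33.7 CPM in SCI + SCS (log2FC 1.31, adjusted p = 0.0719 in edgeR's test and 9.09e-06 in DESeq2), and its part in the Timp4 counts was not tested. Syn1 and Syn3 also stood higher, with log2FC values of 0.98 and 0.90. Timp3 was at 103, 82.8 and 79.9 CPM, within the SCI range (log2FC -0.29, SE 0.22, adjusted p = 0.469). The inhibitors thus differed in direction here too, with Timp1 lower and Timp4 higher in all 3 stimulated rats than in any SCI rat. Neither of these differences passed the adjusted threshold in edgeR's test.

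Of the other enzymes that were DEGs higher in SCI, 6 had an unadjusted p under 0.05 in edgeR's quasi-likelihood test, with mean levels 1.57-fold (Adamts10) to 1.89-fold (Adamts12) lower in SCI + SCS. Adamts7 was at 10.02, 6.38 and 7.46 CPM, below all SCI libraries (log2FC -0.90, SE 0.21, adjusted p = 0.0892 in edgeR's quasi-likelihood test). Mmp23 was at 12.8, 7.84 and 8.10 CPM, again below all SCI libraries (log2FC -0.71, SE 0.21, adjusted p = 0.12). Adamts10 was at 56.4, 49.2 and 35.2 CPM, also apart from SCI (log2FC -0.65, SE 0.18, adjusted p = 0.104). In these 3 genes SCI + SCS 1 was the library nearest to SCI.
Mmp2 was at 82.9, 50.7 and 64.4 CPM, overlapping SCI through SCI + SCS 1 and SCI 1 (log2FC -0.87, SE 0.27, adjusted p = 0.124). Adamts12 was at 27.8, 13.4 and 19.1 CPM (log2FC -0.92, SE 0.33, adjusted p = 0.155) and Adamts15 at 12.5, 9.64 and 10.9 CPM (log2FC -0.71, SE 0.24, adjusted p = 0.145), with the same pair of libraries overlapping. Adamts2, which was not a DEG after injury, stood at 58.5, 34.8 and 37.5 CPM with the same overlap (1.67-fold lower, log2FC -0.74, SE 0.24, adjusted p = 0.133). SCI 1, the library richest in muscle genes, was the lowest SCI library in all 4 of these genes.

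Other members showed smaller or no separation between stimulated and unstimulated injured cord. Adamts4, the member that fell after injury, was at 43.8, 66.4 and 63.0 CPM, against 46.1, 45.6 and 30.9 CPM in SCI (log2FC 0.51, SE 0.21, adjusted p = 0.199 in edgeR's quasi-likelihood test). SCI + SCS 1 lay within the SCI range and the other 2 libraries above it. Mmp16 was at 5.88 to 6.96 CPM and below all SCI libraries (log2FC -0.32, SE 0.14, adjusted p = 0.204). Mmp9 was at 0.421, 0.950 and 0.735 CPM, below the lowest SCI library at 1.01 CPM (log2FC -0.96, SE 0.42, adjusted p = 0.214). Mmp19 was at 20.6, 25.8 and 23.2 CPM, overlapping SCI (log2FC -0.26, SE 0.12, adjusted p = 0.236). Mmp14, at 50.1, 31.6 and 45.9 CPM, lay within the SCI range (log2FC -0.38, SE 0.33, adjusted p = 0.523). Adamts1, at 64.2, 31.4 and 28.8 CPM, had 1 library above all SCI libraries and 2 below them (log2FC -0.28, SE 0.32, adjusted p = 0.633). Adamts5 had a log2FC of 0.06 (SE 0.29). The highest log2FC of the members tested was that of Adamts19, at 1.48 (SE 1.04, adjusted p = 0.424 in edgeR's test). It stood at 0.421 to 0.907 CPM, overlapping SCI.

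**Figure D4:**
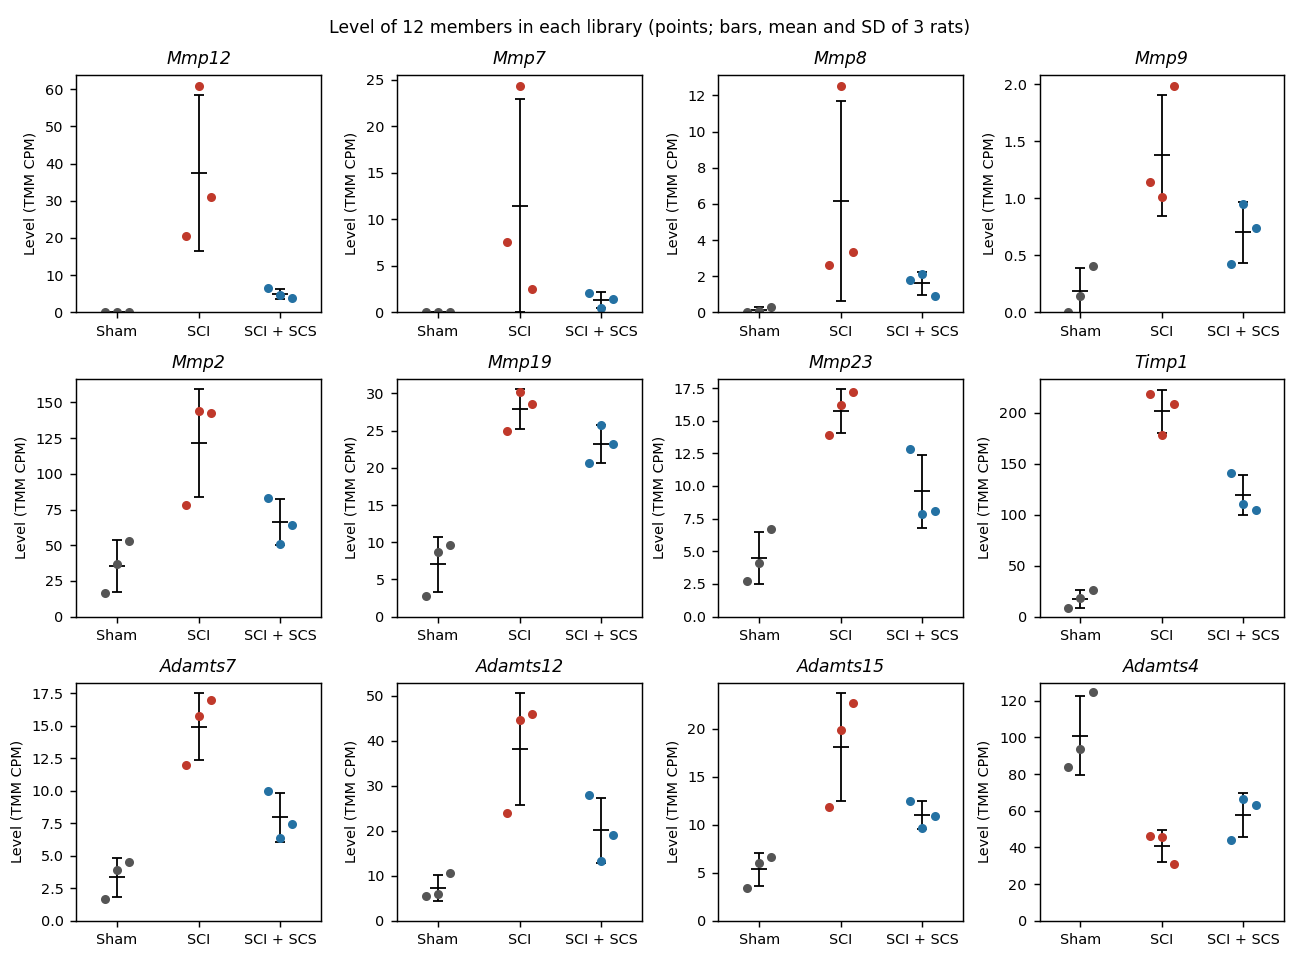
Level (TMM CPM) of 12 members in each library, with 3 points per group and the mean and SD as bars, drawn from 0. In Mmp12, Mmp7, Mmp8, Mmp9, Mmp23, Timp1 and Adamts7 the SCI + SCS points lie between those of Sham and SCI; Adamts4 is highest in Sham.

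All 14 members that were DEGs higher in SCI than in Sham had a log2FC below 0 in SCI + SCS against SCI, from -0.26 for Mmp19 to -3.08 for Mmp7. Of these, 10 had an unadjusted p under 0.05 and 8 had libraries that did not overlap. Because the 14 were chosen with the SCI libraries that also enter the second comparison, neither this direction nor these counts are separate evidence. The same shares among all genes that were DEGs higher in SCI were not counted. In 8 members every Sham library was below every SCI + SCS library and every SCI + SCS library below every SCI library, an order found in 9.11% of all genes tested in all comparisons. These were Adamts7, Adamts16, Mmp7, Mmp8, Mmp9, Mmp12, Mmp23 and Timp1. The reverse order was found in 0 members, against 10.3% of all genes.

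The third comparison, SCI + SCS against Sham, shares libraries with both others and addresses what still differed from uninjured cord. In it 8 members were DEGs higher in SCI + SCS, against 6.28% of all genes, and 0 were DEGs lower, against 5.44% of all genes. The 8 were Adamts7, Adamts12, Adamts15, Mmp7, Mmp8, Mmp12, Mmp19 and Timp1. With no fold threshold, Adamts4 (log2FC -0.80, adjusted p = 0.0295) and Mmp17 (log2FC -0.62, adjusted p = 0.0456) were added as lower, giving 10 members, against 32.4% of all genes in edgeR's quasi-likelihood test. Timp1 was 6.81-fold higher than in Sham (log2FC 2.77, SE 0.40, adjusted p = 0.00672). Mmp12 was at least 130-fold above the Sham floor (at least 32.5-fold at 4 counts per fragment) and Mmp7 at least 35.0-fold (at least 8.75-fold). Mmp19 kept most of its rise, 3.32-fold over Sham (log2FC 1.73, SE 0.43, adjusted p = 0.0261), against 3.94-fold in SCI.
Single libraries decided several of these calls. The member DEGs numbered 5 without Sham 1, 3 without Sham 2, 12 without Sham 3, 3 without SCI + SCS 1, and 4 without SCI + SCS 2 or SCI + SCS 3. Timp1, Mmp12 and Mmp7 passed in every leave-one-out setting. Adamts7 had an adjusted p of 0.0479 with all libraries and of up to 0.151 with 1 left out. Mmp8 (adjusted p = 0.0342) reached 0.113 without Sham 2, and its log2FC of 3.52 became 4.96 without Sham 3. Adamts12, Adamts15 and Mmp19 lost the call as well, at adjusted p of up to 0.0906, 0.0950 and 0.0776.

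Markers of several cell types moved between the groups as well. The summed phagocytic macrophage list (8 of 8 genes found) was 347 to 355 CPM in Sham, 2801 to 3672 CPM in SCI and 1984 to 2437 CPM in SCI + SCS. Most of the Sham sum came from Spp1, at 314, 232 and 201 CPM, so the even Sham sums and the size of the rise depend on it. Spp1 stood at 293 to 593 CPM in SCI and at 338 to 573 CPM in SCI + SCS. Every other gene of this list had a lower mean in SCI + SCS than in SCI. The same sum, with Spp1, is used in the macrophage ratios below. The fibroblast list, led by the fibrillar collagens, was 358 to 1810 CPM in Sham, 3233 to 4878 CPM in SCI and 1984 to 3378 CPM in SCI + SCS. The oligodendrocyte list (6 of 6 genes found) was 57991 to 82230 CPM in Sham, 17160 to 32617 CPM in SCI and 30230 to 35864 CPM in SCI + SCS. Astrocyte genes summed to 6512 to 11403 CPM in Sham, 8001 to 12177 CPM in SCI and 12012 to 15363 CPM in SCI + SCS. Neuron genes summed to 248 to 716 CPM in SCI and 727 to 1138 CPM in SCI + SCS, below the Sham sums given above. The neutrophil list (8 of 8 genes found) was low throughout, at 3.84 to 8.37, 14.7 to 30.1 and 18.4 to 36.5 CPM. The osteoclast list (4 of 5 genes found), of genes that macrophage relatives of bone express, rose from 7.39 to 28.1 CPM in Sham to 154 to 249 CPM in SCI and was 71.6 to 112 CPM in SCI + SCS. The adipocyte list (6 of 6 genes found) was 3.24 to 9.56, 88.4 to 116 and 27.2 to 43.7 CPM. The part of these cells in the members' differences was not tested. Members were instead set beside a list library by library, for pairs of gene and list chosen after their values were seen.

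Of the 12 members set beside the fibroblast list, 7 had ratios that overlapped both between Sham and SCI and between SCI and SCI + SCS. The share of all genes with such overlap was not counted. Adamts2 was at 15.5, 18.0 and 21.2 CPM per 1000 CPM of the fibroblast list in Sham, at 17.4, 15.9 and 18.3 in SCI, and at 17.3, 17.5 and 16.9 in SCI + SCS. These ranges overlap, although the Adamts2 level itself ran from 5.56 to 89.5 CPM. Mmp2 was at 29.2 to 46.0 in Sham, 24.2 to 30.8 in SCI and 24.5 to 29.1 in SCI + SCS on the same ratio, with overlap between Sham and SCI and between SCI and SCI + SCS but not between Sham and SCI + SCS. The other 5 were Adamts7, Adamts12, Adamts15, Adamts16 and Mmp23. In these 5 and in Mmp2 the highest Sham ratio was that of Sham 1, the Sham library with the lowest fibroblast list. For Adamts12 the overlap between Sham and SCI rested on Sham 1, at 15.2. Its ratio was 5.25 in Sham 2, 5.92 in Sham 3 and 7.39 to 9.54 in SCI.
Timp1 differed from the members whose ratios overlapped. Its ratio to the fibroblast list was 23.2, 16.1 and 14.4 in Sham and 67.5, 38.0 and 42.9 in SCI, apart, and 41.9, 55.9 and 47.2 in SCI + SCS, overlapping with SCI. Set against the astrocyte list (6 of 6 genes found), Timp1 was at 1.27 to 2.29 in Sham, 17.9 to 26.1 in SCI and 6.81 to 11.8 in SCI + SCS, with no overlap. On the same list Timp4 was at 3.86 to 8.02 in Sham, 3.40 to 4.69 in SCI and 3.16 to 3.65 in SCI + SCS. These Timp4 ratios overlapped between Sham and SCI and between SCI and SCI + SCS. For Adamts10, Adamts1, Mmp14 and Timp3 the ratio to the fibroblast list was lower in every SCI library than in every Sham library. Timp3 was at 64.7 to 86.0 on it in Sham, 23.2 to 28.5 in SCI and 30.5 to 41.7 in SCI + SCS. For Adamts1, Mmp14 and Timp3 the ratio was higher in every SCI + SCS library than in every SCI library, with means 1.34, 1.36 and 1.43 times those of SCI, while Adamts10 overlapped.

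Mmp12 was lower in SCI + SCS also when set beside the macrophage list. It stood at 7.34, 16.6 and 11.0 CPM per 1000 CPM of the list in SCI and at 3.28, 1.94 and 1.68 in SCI + SCS, so the groups stayed apart. Mmp8 was apart against the neutrophil list too, with 86.3, 531 and 225 in SCI and 81.7, 57.9 and 48.4 in SCI + SCS, though SCI 1 and SCI + SCS 1 were close. Mmp7 overlapped on the macrophage ratio, with 0.890 to 6.62 in SCI and 0.180 to 1.07 in SCI + SCS. Mmp19 was at 7.80, 24.9 and 27.3 in Sham, 8.23 to 10.1 in SCI and 10.4 to 10.6 in SCI + SCS. Its ratio was slightly higher in the stimulated rats than in SCI, and Sham overlapped both. Adamts4, set beside the oligodendrocyte list, was at 1.44 to 1.52 CPM per 1000 CPM in Sham, 1.41 to 2.06 in SCI and 1.45 to 1.89 in SCI + SCS, all overlapping.

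**Figure D5:**
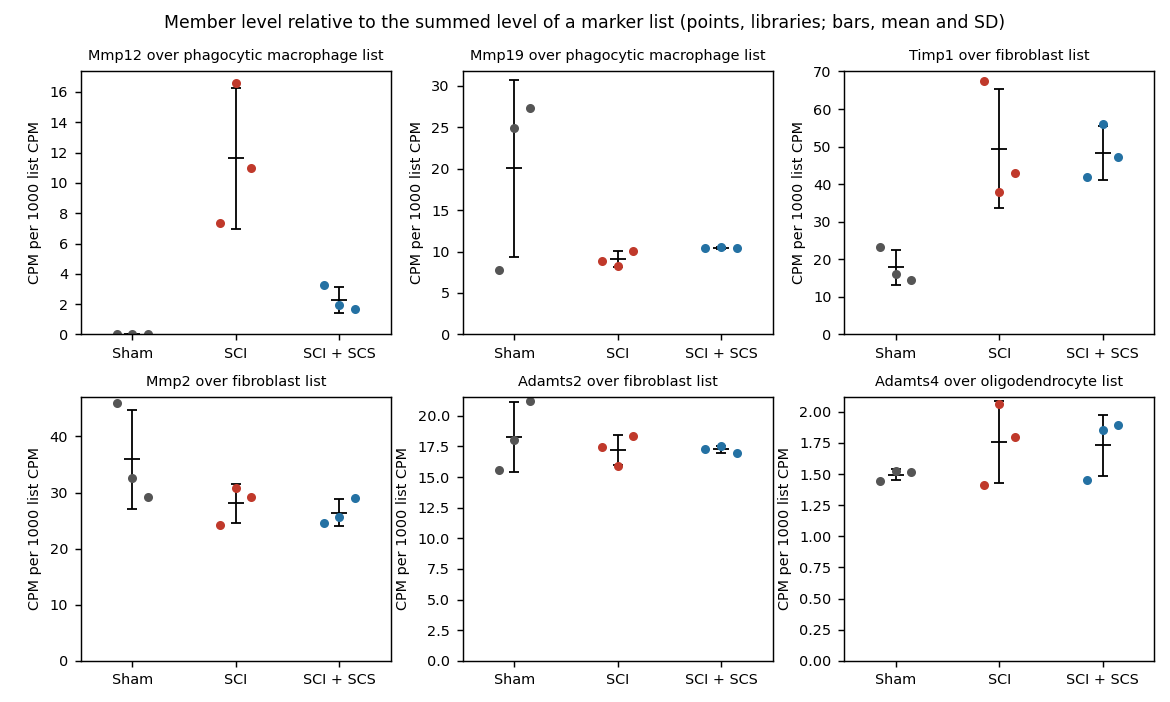
Level of a member per 1000 CPM of the summed marker list named above each panel, with 1 point per library and the mean and SD as bars. Mmp12 over the macrophage list is lower in SCI + SCS than in SCI without overlap, Timp1 over the fibroblast list is higher in SCI than in Sham, Adamts2 and Adamts4 overlap in all groups, and Mmp2 overlaps except between Sham and SCI + SCS.

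Genes that activate or restrain the proteases were read from a list of 19, of which 17 were tested. In SCI against Sham 6 were DEGs higher, against 13.4% of all genes, and 3 were DEGs lower, against 13.6%. Plau, the urokinase that makes plasmin, stood at 0.532, 1.26 and 1.85 CPM in Sham and at 13.4, 20.8 and 16.6 CPM in SCI (log2FC 3.78, SE 0.46, adjusted p = 0.00193 in edgeR's quasi-likelihood test). Its receptor Plaur had a log2FC of 3.10 (adjusted p = 0.0161). The other 4 that rose were the inhibitors Serpinf2, A2m and Serping1 and the Mmp9-binding protein Lcn2. The 3 that fell were Spock1, Spock2 and Spock3, proteoglycans called testicans. Furin, which cuts the propeptide of membrane-type Mmp and Adamts enzymes, rose by less than the fold threshold (log2FC 0.95, adjusted p = 0.00198), and Reck, a membrane inhibitor, did not pass (0.84, adjusted p = 0.0680). In SCI + SCS against SCI 0 of the 17 were DEGs in edgeR's test, with Plau at a log2FC of -0.80 (adjusted p = 0.124) and Spock1 at 1.14 (adjusted p = 0.0770). DESeq2 called 1 of them, Spock1, as higher (log2FC 1.13, adjusted p = 4.91e-05), against 418 of 16503 genes called higher.

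The 6 ADAMTS-like genes encode relatives without a protease domain. In edgeR's quasi-likelihood test 3 of them were DEGs higher in SCI, against 13.4% of all genes, and 1 was a DEG lower, against 13.6%. The 3 were Adamtsl3, Adamtsl4 and Adamtsl5 (log2FC 1.93, 1.55 and 1.35), and the 1 was Papln (-1.41). Of 11 substrate genes, 4 were DEGs higher in SCI, against 13.4% of all genes, and 1 was a DEG lower, against 13.6%. The 4 were Fn1 (fibronectin), Tnc (tenascin C) and the laminin chains Lama1 and Lama2, with log2FC values of 1.92, 1.44, 1.68 and 1.61. The substrate DEG that fell was Acan (aggrecan), from 5.50 to 11.2 CPM in Sham to 1.504 to 2.04 CPM in SCI (log2FC -2.23, adjusted p = 0.00260). Bcan and Vcan, other proteoglycan targets of Adamts4, had log2FC values of -0.31 and -0.14 and did not pass. Ncan fell by less than the fold threshold (log2FC -0.92, adjusted p = 0.0110) and was at 16.9, 39.1 and 26.7 CPM in SCI + SCS against 9.32 to 12.6 CPM in SCI (log2FC 1.30, adjusted p = 0.0872). In SCI + SCS against SCI 0 of the 6 ADAMTS-like and 0 of the 11 substrate genes were DEGs in edgeR's test. DESeq2 called 0 and 1 of them, the 1 being Ncan as higher (log2FC 1.30, adjusted p = 0.00052), against 418 of 16503 genes called higher.

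The AP-1 genes, whose products bind the motif shown in the Mmp12 and Mmp7 promoters, were read from a list of 7, of which 6 were tested. None was a DEG in SCI against Sham, where 13.4% of all genes were DEGs higher and 13.6% DEGs lower. At an adjusted p under 0.05 in edgeR's quasi-likelihood test 3 were higher, and 49.4% of all genes passed in either direction. The 3 were Jun, Fosl2 and Jund, with log2FC values of 0.97, 0.93 and 0.54. Jun was at 78.0 to 91.7 CPM in Sham, 161 to 193 CPM in SCI and 127 to 161 CPM in SCI + SCS. In SCI + SCS against SCI 0 of the 6 were DEGs in edgeR's test or in DESeq2, and Fos had a log2FC of 0.00 (SE 0.33).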

How the data were processed

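Spinal cord RNA of 9 rats, 3 per group, was sequenced in paired reads after poly(A) selection. The submitters' processing notes name fastp 0.23.2 for trimming, HISAT2 2.2.1 for alignment and the build mRatBN7.2. The counting program and its strand setting are not given in the sources used here. The authors deposited raw counts per gene and, as a second table, FPKM, which the authors scaled by gene length and library total. Libraries were grouped by their titles, and the labels name 1 batch.

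Counts were tested with edgeR 4.0.16 in R 4.3.3 by its quasi-likelihood test, with TMM and filterByExpr, using for each comparison its own 6 libraries. Adjustment was by Benjamini-Hochberg over all genes. The study named DESeq2 with the same thresholds; here DESeq2 1.42.0 and limma 3.58.1 on log2(FPKM + 1) or log2(FPKM + 0.1), with a mean FPKM of at least 0.1, were alternatives. Fold changes on these log scales understate those of low genes. An SE is |log2FC| over the square root of the F statistic, and CPM used TMM factors of all 9 libraries. An exact permutation test of 3 rats against 3 cannot go below p = 0.1. Totals were 62844376 to 88358570 counts. Floors cover counting error only, as PCR copies were not marked by molecular identifiers. Scripts were tested on simulated data.

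Members and gene lists were chosen with earlier results of these data known. Named genes were the 3 Timp genes with a row, Mmp2, Mmp9, Mmp14, Adamts1, Adamts4 and Adamts5. Also named were every member DEG of SCI against Sham and every member with an unadjusted p under 0.05 in SCI + SCS against SCI. Other members were named with fewer values. Alternatives changed the test, filter, normalization, libraries, rows per identifier, pairing and thresholds.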

Additional observations from a re-analysis of the deposited data

How the results depend on the processing

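Of 23 named members, 20 kept their direction under all alternatives in all 3 comparisons. The log2FC of Adamts5 ran from -0.16 to 0.46 in SCI against Sham, from -0.14 to 0.33 in SCI + SCS against SCI and from -0.062 to 0.54 in SCI + SCS against Sham when 1 library was left out, and in the last comparison that of Timp3 ran from -0.15 to 0.67 and that of Timp4 from -0.034 to 0.19; none of these passed the test. Gene values were followed by direction and by an adjusted p under 0.05 alone, so a value could keep its label while its fold fell below the DEG threshold. In SCI against Sham, 368 of 410 gene values kept both, 17 no longer passed and 23 newly passed. In SCI + SCS against SCI these numbers were 398 of 414, 0 and 13, and in SCI + SCS against Sham 349 of 410, 44 and 14. All DEGs of SCI against Sham (4800) became 2649 and 2550 on log2(FPKM + 1) with and without the filter on low values, and 8796 with no fold threshold; leaving out 1 library gave 3908 to 5108 of them and 12 to 19 member DEGs. In SCI + SCS against SCI (1 DEG, 0 members), DESeq2 gave 771 DEGs and 3 members, log2(FPKM + 1) gave 20 DEGs and log2(FPKM + 0.1) 19, and at least 10 counts in every library, or summed rows of an identifier, gave 0; leaving out 1 library gave 0 to 123 DEGs and 0 to 1 members. In SCI + SCS against Sham (2068 DEGs, 8 members), log2(FPKM + 1) gave 921 DEGs and 3 members, the same without the filter 843 and 3, and no fold threshold 5710 DEGs; leaving out 1 library gave 950 to 2891 DEGs and 3 to 12 members. The cause of these shifts was not tested, beyond fewer samples in the last setting.

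Same-numbered rats were different animals, and the correlations of their deviations from the group means ran from -0.328 to 0.243, so the numbers did not pair the samples. With the replicate block, member DEGs were 18 in SCI against Sham (4656 of all genes), 0 in SCI + SCS against SCI (0) and 2 in SCI + SCS against Sham (715).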
